A study of Mus musculus with 10 samples.

Results

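The proteasome genes of mouse splenic B cells were described here across 3 genotypes. They comprised every probe set of the expression table that carried exactly 1 gene symbol beginning with Psma, Psmb, Psmc, Psmd, Psme, Psmf or Psmg. This rule took in 56 probe sets of 21640 with 1 symbol, and 50 genes of 19937. By role they were 8 alpha ring genes, 7 constitutive beta ring genes, 4 catalytic genes of the immunoproteasome and thymoproteasome, 6 ATPases and 11 non-ATPase subunits of the regulatory particle, 5 genes for activators and an inhibitor, and 7 assembly chaperones. The remaining 2, Psmc3ip and Psme3ip1, are named after a subunit without being one. No filter on low values was applied, so all 50 genes were tested.

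The proteasome is the protease that degrades ubiquitin-tagged proteins in the cytosol and nucleus. Its barrel-shaped core particle is built from rings of alpha and beta subunits, and a regulatory particle of ATPases and non-ATPase subunits binds, unfolds and feeds in the substrates. In lymphocytes and in cells exposed to interferon gamma, the catalytic subunits Psmb8, Psmb9 and Psmb10 can replace their constitutive counterparts Psmb5, Psmb6 and Psmb7, and the resulting immunoproteasome is known for producing peptides for MHC class I molecules.

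RNA came from B220+CD22+ B cells purified by flow cytometry from spleens of mice of the CBAxC57BL/6J strain, and was hybridised to Affymetrix Mouse Gene 1.0 ST arrays. The 3 wild-type arrays carried no transgene, per the labels. The 3 Sca1-Bcl6(floxed) arrays, called floxed, came from mice with a loxP-flanked Bcl6-IRES-eGFP cassette in the pLy6 vector, whose regulatory elements are those of the stem cell antigen Sca1. The 4 Sca1-Bcl6(delta) arrays, called delta, came from floxed mice crossed to mb1-Cre, a Cre driven by the promoter of a B-lineage gene. The design speaks of 2 independent transgenic lines, and the line, age and animal behind each array are not given. Since nothing in the labels says that arrays of a group came from separate animals, p-values measure the spread between these samples.

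Values are log2 of the RMA intensity, and changes are differences of group means on that scale. The median intensity per array lay between 139 and 145, and correlations across genes were 0.993 to 0.997 within groups and 0.989 to 0.996 between groups. Of 10 B cell markers 9 were measured, all with a mean log2 level above 6. Cd79a, the B cell receptor gene also called mb1, fell by 0.48 on the log2 scale in delta against wild-type arrays (limma adjusted p = 0.0427). Bcl6 had log2 levels of 9.80 to 10.48 in wild-type, 9.80 to 9.96 in floxed and 9.56 to 9.83 in delta arrays, so the transgenic groups had no higher Bcl6 level, and this probe set cannot separate transgenic from endogenous RNA. The mice differed in sex: Xist and Y-linked genes showed a male pattern in all 3 floxed arrays and in delta 1, and in 0 of the 3 wild-type arrays. Within the wild-type and floxed arrays alone, genotype and sex cannot be told apart. In sorted bulk RNA, fewer cells of a type and less RNA per cell cannot be told apart either.

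The promoters of the catalytic immunoproteasome genes and of Psme1, the interferon-inducible members with floxed arrays above all wild-type arrays, are shown with that of the constitutive Psmb5, so that their short interferon-response motifs can be read. RefSeq promoter windows of 300 bases, from 250 bases before to 50 from the start site in build GRCm38.p6, were found for 42 of the 50 genes. Psmb8 lies in chr17:34197945-34198244 on the plus strand, Psmb9 in chr17:34187281-34187580 on the minus strand, Psmb10 in chr8:105938343-105938642 on the minus strand, Psme1 in chr14:55578244-55578543 on the plus strand and Psmb5 in chr14:54617946-54618245 on the minus strand. Sequences run 5′ to 3′ on the strand of the gene, and capitals mark matches to the core of the interferon-stimulated response element, which is GAAA, any 2 bases and GAAA, and to the gamma-activated site, TTCNNNGAA, on either strand.
Psmb8 promoter: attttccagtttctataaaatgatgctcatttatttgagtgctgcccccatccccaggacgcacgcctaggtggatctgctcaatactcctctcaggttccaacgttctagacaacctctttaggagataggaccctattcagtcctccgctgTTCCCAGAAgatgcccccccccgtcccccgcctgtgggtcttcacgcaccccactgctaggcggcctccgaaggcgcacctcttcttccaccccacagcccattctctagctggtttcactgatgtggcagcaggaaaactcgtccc
Psmb9 promoter: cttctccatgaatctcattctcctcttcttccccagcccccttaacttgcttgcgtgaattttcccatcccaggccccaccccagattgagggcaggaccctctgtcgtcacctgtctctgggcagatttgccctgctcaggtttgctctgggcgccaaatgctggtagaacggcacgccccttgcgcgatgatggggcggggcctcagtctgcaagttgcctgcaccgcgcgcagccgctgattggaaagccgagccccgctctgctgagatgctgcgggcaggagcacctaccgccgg
Psmb10 promoter: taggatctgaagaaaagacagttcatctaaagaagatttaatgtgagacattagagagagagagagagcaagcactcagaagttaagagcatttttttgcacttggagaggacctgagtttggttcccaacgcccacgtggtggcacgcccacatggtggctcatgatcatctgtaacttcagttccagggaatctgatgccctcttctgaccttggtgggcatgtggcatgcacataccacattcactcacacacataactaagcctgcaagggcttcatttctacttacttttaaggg
Psme1 promoter: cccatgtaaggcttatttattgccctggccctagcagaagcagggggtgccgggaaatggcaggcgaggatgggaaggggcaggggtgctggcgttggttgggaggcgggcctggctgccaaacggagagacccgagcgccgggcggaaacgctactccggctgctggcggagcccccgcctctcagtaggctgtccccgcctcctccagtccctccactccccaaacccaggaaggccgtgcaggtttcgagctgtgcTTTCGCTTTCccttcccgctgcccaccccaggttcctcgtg
Psmb5 promoter: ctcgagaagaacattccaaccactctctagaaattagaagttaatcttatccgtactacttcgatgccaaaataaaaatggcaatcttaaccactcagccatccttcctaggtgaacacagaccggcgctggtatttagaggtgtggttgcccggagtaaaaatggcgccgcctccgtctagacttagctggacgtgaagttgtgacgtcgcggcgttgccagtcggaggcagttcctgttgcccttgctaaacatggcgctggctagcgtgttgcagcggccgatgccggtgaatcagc

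The Psmb8 window held 1 gamma-activated site motif, which began at base -97 from the start site, and the Psme1 window held 1 response element core, TTTCGCTTTC, beginning at base 10 from the start site. The windows of Psmb9, Psmb10 and Psmb5 held neither motif, nor did that of Psma7, whose floxed arrays also lay above all wild-type arrays. Over all 32851 mouse promoter windows of this length, 3.44% held the response element core and 8.3% the gamma-activated site. Among the 42 members with a window, 5 held the first (Psmb3, Psmd4, Psmd9, Psme1 and Psmg4) and 3 the second (Psmb8, Psmd2 and Psmg1). These members have 46 windows, of which 5 held the first and 3 the second. The core of the antioxidant response element, TGANNNNGC, can be bound by factors that raise proteasome gene transcription. It was in 27 of the 46 windows, from 25 members, and in 41.3% of all windows. The GC box GGGCGG was in 25 of the 46 windows, from 24 members, and in 35.7% of all windows. It overlaps the antioxidant motif in the Psmb9 window. A match is a description of the letters and not a binding site. The Psmb9 window and that of Tap1, the peptide transporter gene on the opposite strand, shared 275 bases. In the RefSeq gene order of this assembly, Psmb8, Psmb9, Tap1 and Tap2 are neighbours among MHC class II genes, and Psme1 and Psme2 are separated by a single coding gene.

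Against wild-type arrays, floxed arrays had higher group means for the 3 catalytic immunoproteasome genes and the activator gene Psme1, by 1.17 to 1.44-fold, while the constitutive catalytic genes differed by no more than 0.01 on the log2 scale. No member passed the threshold. By limma, 0 of 50 genes had an adjusted p under 0.05, where 0.552% of all genes did, and 6 of 50 (12%) had an unadjusted p under 0.05, where 12.8% of all genes did. The members' share at the unadjusted threshold was thus near that of all genes. All 6 had higher values in floxed arrays, where the share of all genes that did was 6.14%. They were Psmb8, Psmb9, Psmb10, Psme1, Psma7 and Psmd14, and without wild-type 2 the count was 3. The floxed arrays all lay above the wild-type arrays for 7 of 50 genes (14%), against 7.6% of all genes, and all below them for 1 of 50 (2%), against 9.13%. The median change was 0.03 over the 50 genes and -0.02 over all genes.

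**Figure D1:**
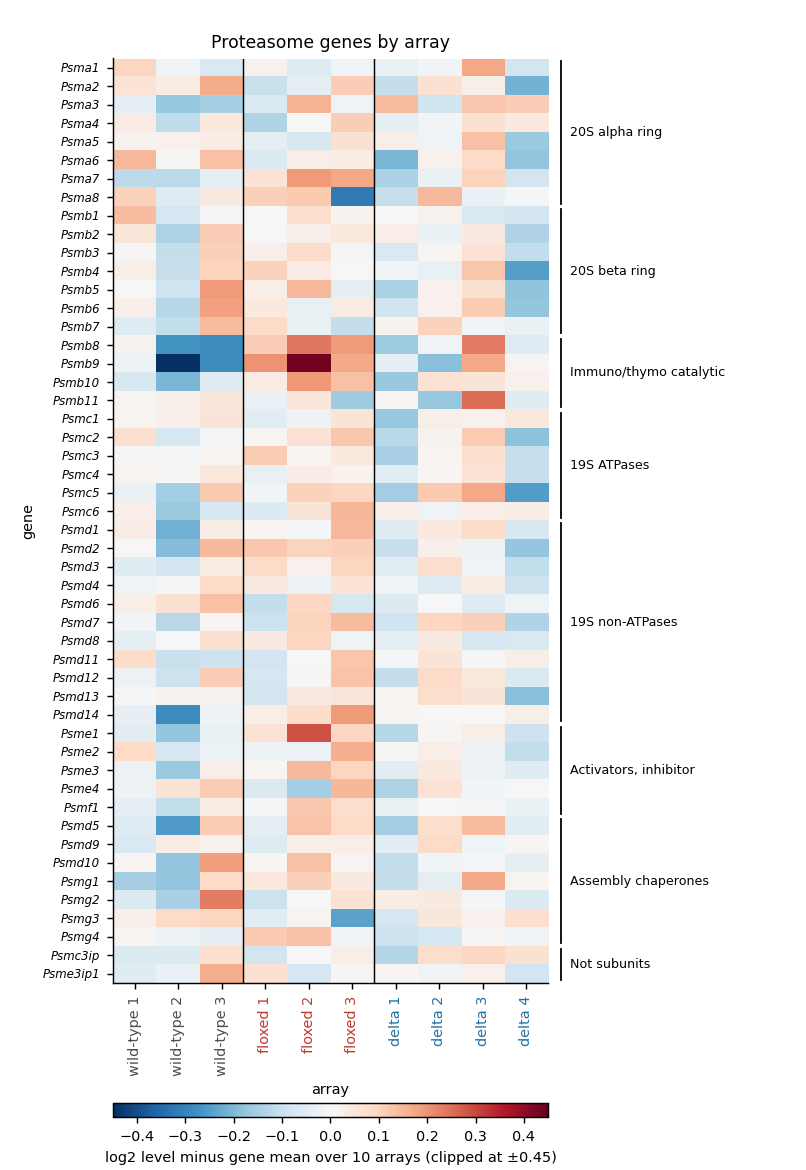
Log2 level of each of the 50 genes (rows, by role) in each of the 10 arrays (columns), as the difference from the mean of that gene over all arrays. Color runs from blue (lower) to red (higher) and is clipped at 0.45 in size. Psmb8, Psmb9 and Psmb10 are on the red side in the 3 floxed arrays, only faintly for Psmb10 in floxed 1, and also in delta 3. Delta 4 and wild-type 2 are blue across much of the core.

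Psmb9 encodes the immunoproteasome subunit that takes the place of Psmb6. Its log2 levels were 10.55, 10.12 and 10.29 in wild-type arrays, 10.77, 11.00 and 10.74 in floxed arrays, and 10.53, 10.38, 10.74 and 10.58 in delta arrays. All floxed arrays lay above all wild-type arrays. They also lay above all delta arrays, but floxed 3 and delta 3 differed only past the second decimal. Mean intensities were 1287 ± 195 (SD, n = 3) in wild-type and 1840 ± 187 (SD, n = 3) in floxed arrays. The log2 change was 0.52 (SE 0.12, 95% CI 0.26 to 0.78), or 1.44-fold, with a limma adjusted p of 0.0872, the 250th smallest p of 19937 genes. Over the alternative settings tried, its adjusted p ran from 0.0673 to 0.635.

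Psmb8 encodes the subunit that replaces Psmb5. Its log2 levels were 10.58, 10.29 and 10.28 in wild-type, 10.67, 10.80 and 10.75 in floxed, and 10.40, 10.55, 10.80 and 10.50 in delta arrays. The floxed arrays lay above the wild-type arrays, of which wild-type 1 came closest, and delta 3 lay level with floxed 2. The change from wild-type to floxed was 0.36 (SE 0.11, 95% CI 0.13 to 0.60; limma adjusted p = 0.173), or 1.28-fold.

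Psmb10 encodes the counterpart of Psmb7. It had log2 levels of 10.47, 10.34 and 10.49 in wild-type, 10.58, 10.74 and 10.67 in floxed, and 10.37, 10.61, 10.60 and 10.56 in delta arrays. The floxed arrays again lay above the wild-type arrays, while delta arrays overlapped both groups. The change was 0.23 (SE 0.08, 95% CI 0.06 to 0.41; limma adjusted p = 0.243). Psmb11, the thymus-specific catalytic gene, had log2 levels of 6.57 to 6.99 in all arrays and a change of -0.08 (95% CI -0.29 to 0.14), with overlapping groups.

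The constitutive catalytic genes showed no such separation. Psmb5, the chymotrypsin-like subunit gene, had log2 levels of 11.01, 10.92 and 11.21 in wild-type, 11.04, 11.16 and 10.97 in floxed, and 10.87, 11.03, 11.08 and 10.83 in delta arrays. The 3 groups overlapped. Its change from wild-type to floxed was 0.01 (95% CI -0.20 to 0.21). Psmb6, the caspase-like subunit gene, had a change of -0.01 (95% CI -0.21 to 0.19), and Psmb7, the trypsin-like subunit gene, a change of -0.01 (95% CI -0.18 to 0.17). Over all 7 constitutive beta ring genes the changes lay between -0.01 and 0.04, with a median of 0.01 beside -0.02 for all genes.

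**Figure D2:**
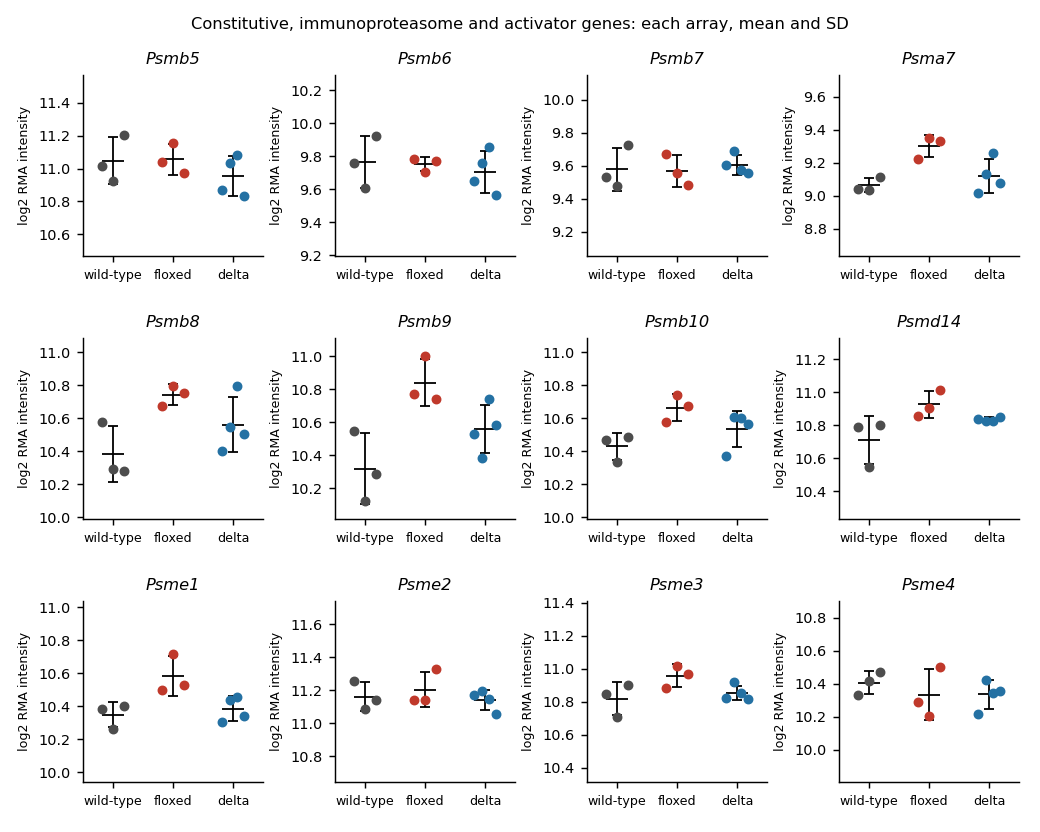
Log2 RMA intensity (vertical axis, a span of equal size in every panel) of 12 genes in wild-type, floxed and delta arrays. Each point is 1 array, and the bars give the group mean and SD. Floxed points lie above all wild-type points for Psmb8, Psmb9, Psmb10, Psma7, Psmd14 and Psme1, and overlap them for Psmb5, Psmb6, Psmb7, Psme2, Psme3 and Psme4.

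The log2 difference between each inducible gene and its constitutive counterpart was also taken within each array, which removes any shift common to both genes. Its size depends on probe affinity, so only its change between groups can be read. For Psmb8 minus Psmb5 it was -0.44, -0.63 and -0.93 in wild-type arrays, -0.37, -0.36 and -0.22 in floxed arrays, and -0.47, -0.49, -0.28 and -0.33 in delta arrays. Floxed arrays lay above wild-type arrays with no overlap, and their means differed by 0.35. For Psmb9 minus Psmb6 it was 0.79, 0.51 and 0.36 in wild-type arrays, 0.99, 1.30 and 0.97 in floxed arrays, and 0.88, 0.62, 0.89 and 1.02 in delta arrays. Floxed arrays again lay above wild-type arrays, by 0.53 in the mean, and delta arrays overlapped both. For Psmb10 minus Psmb7 the means differed by 0.24 and the groups overlapped. No test was made of these differences.

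**Figure D3:**
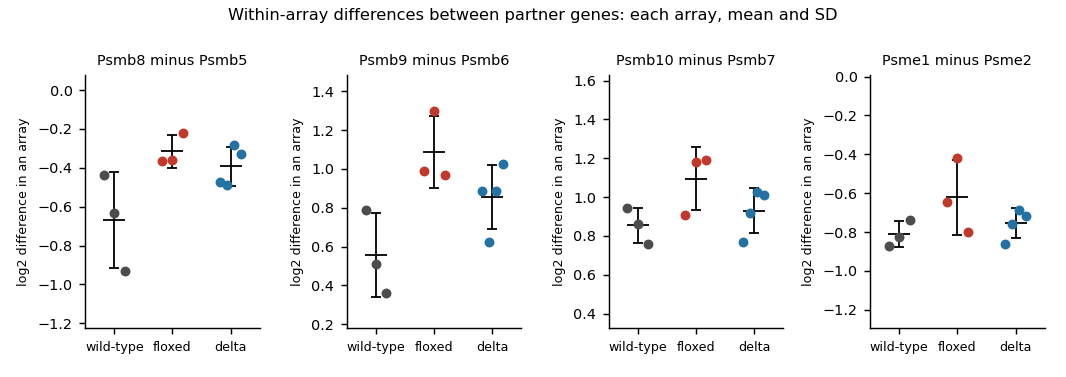
Log2 difference within an array (vertical axis) for Psmb8 minus Psmb5, Psmb9 minus Psmb6, Psmb10 minus Psmb7 and Psme1 minus Psme2, in wild-type, floxed and delta arrays. Each point is 1 array, and the bars give the group mean and SD. Floxed points lie above all wild-type points in the first 2 panels and overlap them in the others.

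Among the activators, Psme1 and Psme2 encode the alpha and beta subunits of the interferon-inducible ring that caps the core particle. Psme1 had log2 levels of 10.39, 10.26 and 10.40 in wild-type, 10.50, 10.72 and 10.53 in floxed, and 10.31, 10.44, 10.46 and 10.34 in delta arrays. Every floxed array lay above every wild-type and every delta array. The change from wild-type to floxed was 0.23 (SE 0.08, 95% CI 0.06 to 0.40; limma adjusted p = 0.228). Psme2 had log2 levels of 11.25, 11.09 and 11.14 in wild-type, 11.14, 11.14 and 11.33 in floxed, and 11.17, 11.20, 11.14 and 11.06 in delta arrays. Its groups overlapped, with a change of 0.04 (95% CI -0.12 to 0.21). A probe set that carries both Psme2 and its near copy Psme2b was left out by the rule, and probes for such copies can bind RNA of either. Psme3, the nuclear activator gene, had a change of 0.14 (95% CI -0.01 to 0.29). Psme4, which encodes another nuclear activator, had one of -0.07 (95% CI -0.26 to 0.11), and Psmf1, which encodes a proteasome inhibitor, one of 0.10 (95% CI -0.03 to 0.24), none of them past the threshold.

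In the alpha ring, which gates entry to the core particle, Psma7 had log2 levels of 9.04, 9.04 and 9.12 in wild-type, 9.22, 9.35 and 9.33 in floxed, and 9.02, 9.13, 9.26 and 9.08 in delta arrays. The floxed arrays lay above the wild-type arrays, and delta 3 lay among them. The change was 0.24 (SE 0.07, 95% CI 0.08 to 0.40; limma adjusted p = 0.187). The other 7 alpha ring genes had changes between -0.10 and 0.15, Psma2 at the low end and Psma3 at the high end. For Psma3 the probe sets outside the fit had changes of 0.12 and -0.08. Psma8, the testis form of an alpha subunit, had a log2 level of at most 5.58 in any array.

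In the regulatory particle, Psmd14 encodes the deubiquitinase that removes ubiquitin from substrates. Its log2 levels were 10.79, 10.55 and 10.80 in wild-type, 10.86, 10.91 and 11.02 in floxed, and 10.84, 10.82, 10.83 and 10.85 in delta arrays. Both transgenic groups lay above the wild-type arrays, by small margins, and wild-type 2 was the lowest array. The change from wild-type to floxed was 0.21 (SE 0.08, 95% CI 0.05 to 0.38; limma adjusted p = 0.267), and it was 0.13 without wild-type 2. The 11 non-ATPase genes had a median change of 0.05, from -0.11 for Psmd6 to 0.21 for Psmd14. The 6 ATPases, which unfold substrates, had a median of 0.06, with the largest value for Psmc6 (0.12, 95% CI -0.03 to 0.28) and then Psmc5 (0.08, 95% CI -0.17 to 0.33). Psmc3 was the other gene with floxed arrays above all wild-type arrays, with a change of 0.06.

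The 7 assembly chaperones, which guide the rings and the base of the regulatory particle together, had changes from -0.16 to 0.14 with a median of 0.04. Psmg3 was the gene with floxed arrays below all wild-type arrays, at 7.03, 7.10 and 7.11 in wild-type and 6.96, 7.02 and 6.77 in floxed arrays. Wild-type 1 and floxed 2 lay closest, and floxed 3 was the lowest. The change was -0.16 (95% CI -0.33 to 0.01; limma adjusted p = 0.405). Psmg1 had the highest value of this group, 0.14 (95% CI -0.05 to 0.34).

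**Figure D4:**
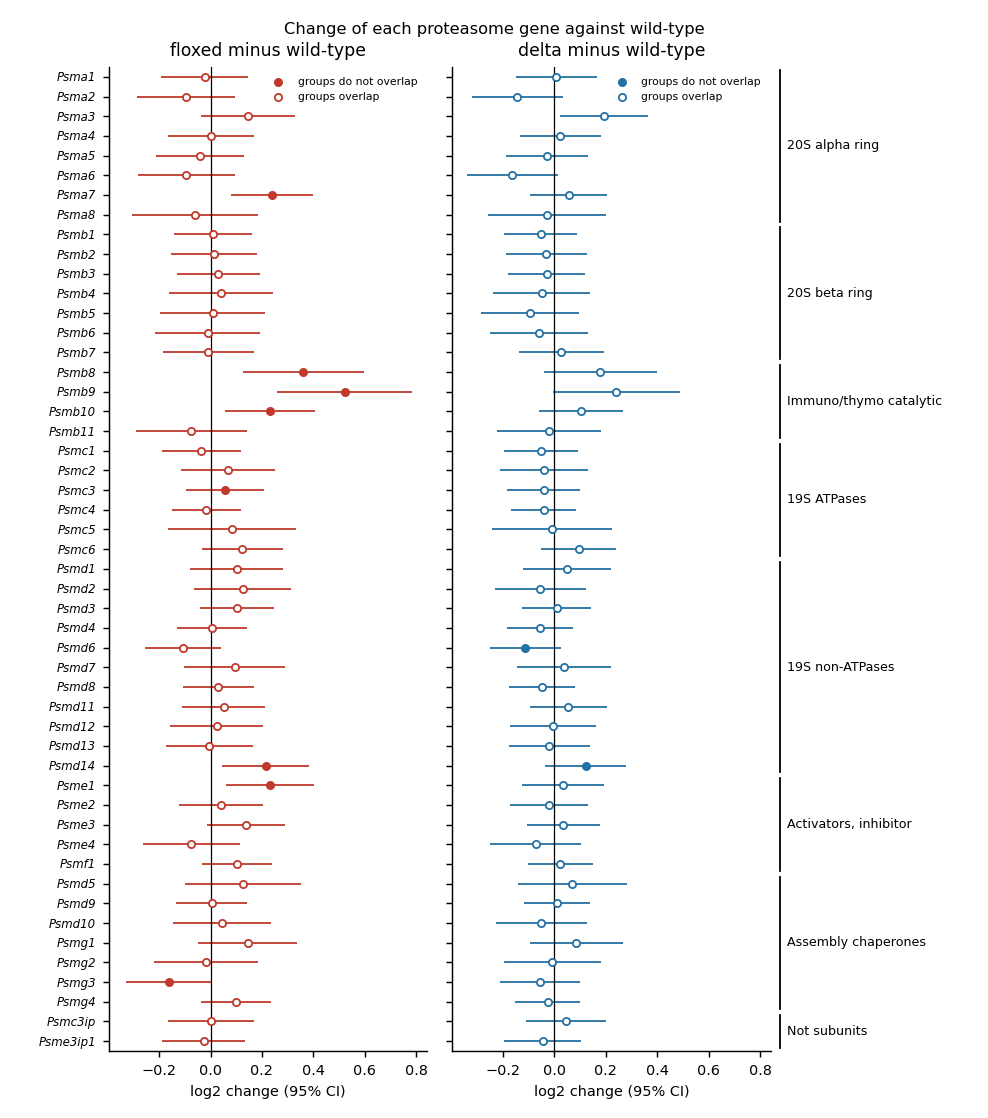
Log2 change against wild-type (horizontal axis) with its 95% CI from limma for each of the 50 genes, by role, in floxed arrays (left) and delta arrays (right). Filled points mark genes whose groups do not overlap. The 3 catalytic immunoproteasome genes lie at 0.23 to 0.52 on the left and at 0.10 to 0.24 on the right. The constitutive beta ring lies at -0.01 to 0.04 on the left and at -0.09 to 0.03 on the right.

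For floxed against wild-type, the 95% CI lay within 0.5 log2 units of 0 for 48 of 50 members (96%), beside 90.9% of all genes, and the exceptions were Psmb8 and Psmb9. Psmb9 had the widest interval of the 50 members, reaching 0.26 to either side, against a median of 0.17. The median standard deviation within groups was 0.0902 for the members and 0.105 for all genes, which include many genes of lower level. At mean log2 levels of 8 to 10 it was 0.0877 for 27 members and 0.0980 for all genes. Above 10 it was 0.0986 for 18 members and 0.0849 for all genes. Arrays also differed from each other across the core as a whole. Of the 32 genes of the core rings and the regulatory particle, delta 4 was the lowest array for 15, wild-type 2 for 8 and delta 1 for 5. The median shift of these 32 genes from their own means was -0.10 in delta 4, -0.09 in wild-type 2 and 0.06 in delta 3 and in floxed 3. Across all genes the median shift of an array lay between -0.01 and 0.02. Across the 7664 genes with a mean log2 level above 8, it was 0.06 in floxed 3, as for the core, and 0.03 in wild-type 3, -0.02 in wild-type 2 and -0.01 in delta 4 and in delta 3. The part of these shifts in the changes above was not tested, other than by leaving out each array.

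The sex pattern moved with the floxed group, as did many but not all markers of other cells. Delta 1, the delta array of male pattern, had the lowest delta level of Psmb8, Psmb10, Psma7 and Psme1. With sex pattern as a covariate, which rests on delta 1, the floxed change was 0.58 (SE 0.18) for Psmb8, 0.56 (SE 0.22) for Psmb9, 0.45 (SE 0.12) for Psmb10 and 0.34 for Psme1, and the limma adjusted p were 0.558, 0.635, 0.470 and 0.647. Of 11 measured T cell markers 10 had a higher mean in floxed than in wild-type arrays. Their summed intensity was 3858 to 4139 in wild-type, 4094 to 4588 in floxed and 3781 to 4677 in delta arrays, with Trat1 and Cd3d below a mean log2 level of 6. Most of each sum was Cd2, the marker with a lower floxed mean, at mean intensities of 2936, 2869 and 3177. No other T cell marker had a group mean intensity above 296, so these sums say little about them. Of 10 NK cell markers 9 were higher in the floxed mean, with summed intensities of 675 to 786 in wild-type, 1115 to 1419 in floxed and 708 to 1150 in delta arrays, and 7 of them had a mean log2 level below 6. Of 10 myeloid markers 6 were higher in the floxed mean, with summed intensities of 1044 to 1069, 1525 to 1944 and 1200 to 2383. Adgre1 had the largest change of them, 1.91, while Csf1r, Cd14, Mpo and Fcgr1 had changes below 0. Of 7 measured erythroid markers 5 were higher in the floxed mean, and Alas2 (1.18), Trim10 (0.82) and Car1 (0.56) did not overlap between the groups. Of 5 plasma cell markers 4 were higher, and by limma Jchain rose by 1.64 (adjusted p = 0.00383) and Sdc1 fell by 0.51 (adjusted p = 0.0450). Of 5 plasmacytoid dendritic cell markers 2 were higher in the floxed mean, and the median change was -0.03. In floxed 2 the mean T cell marker level lay 0.02 above wild-type, against 0.67 and 0.49 in floxed 1 and 3. For NK cell markers it lay 0.16 above wild-type in floxed 2, against 0.61 and 0.49, and for myeloid markers 0.24, against 0.62 and 0.23. Adgre1, Itgam, Il2rb and Prf1 were highest in floxed 2 among the floxed arrays, at 9.83, 7.90, 8.11 and 8.78. The other NK cell markers were all lowest in floxed 2 among these arrays. So were Csf1r, Cd14, Lyz2, Ltf, S100a8 and Fcgr1 of the myeloid list. Floxed 2 also had the highest level of Psmb8, Psmb9, Psmb10 and Psme1 among the floxed arrays. Delta 4 had Adgre1, Itgam and Il2rb at 10.15, 8.58 and 8.33, above every floxed array. Its levels of Psmb8, Psmb9, Psmb10 and Psme1 lay below those of every floxed array. The part of these other cells in the result was not tested further.

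Delta arrays, from the cross to mb1-Cre, had group means for Psmb8, Psmb9 and Psmb10 between those of the other groups. The changes from wild-type were 0.24 (SE 0.11, 95% CI -0.01 to 0.49; limma adjusted p = 0.647) for Psmb9, 0.18 (SE 0.10, 95% CI -0.04 to 0.40; limma adjusted p = 0.735) for Psmb8 and 0.10 (95% CI -0.06 to 0.27) for Psmb10. Those of Psmb5, Psmb6 and Psmb7 were -0.09, -0.06 and 0.03. The changes were 0.04 for Psme1, -0.02 for Psme2, 0.03 for Psme3, -0.07 for Psme4 and 0.02 for Psmf1. These comparisons share the wild-type arrays with those of floxed.

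No member passed the threshold against wild-type in delta arrays either. By limma 0 of 50 had an adjusted p under 0.05, beside 0.0752% of all genes, and 1 of 50 (2%) had an unadjusted p under 0.05, beside 7.89%. That gene was Psma3, with log2 levels of 10.68, 10.55 and 10.57 in wild-type, 10.65, 10.88 and 10.70 in floxed, and 10.86, 10.63, 10.84 and 10.83 in delta arrays. Delta 2 lay within the wild-type range and the other delta arrays above it. Its change was 0.19 (95% CI 0.02 to 0.36; limma adjusted p = 0.561), and the other Psma3 probe sets had changes of 0.07 and -0.00183. The unadjusted count was 4 without delta 2, 3 without wild-type 1, 2 without floxed 2 or delta 1, and 0 without wild-type 3 or delta 4. Delta arrays lay above all wild-type arrays for 1 of 50 genes, Psmd14 (0.12, 95% CI -0.04 to 0.28), beside 3.75% of all genes, and below them for 1, Psmd6 (-0.11, 95% CI -0.25 to 0.02), beside 5.5%. Psmd6 had log2 levels of 9.24, 9.28 and 9.35 in wild-type and 9.15, 9.21, 9.16 and 9.20 in delta arrays, so the groups were separated by a narrow margin. Psma6, at -0.16 (95% CI -0.34 to 0.01), and Psma2, at -0.14 (95% CI -0.32 to 0.04), had the lowest values. The median change was -0.02 over members and -0.01 over all genes, and all 50 intervals lay within 0.5 log2 units of 0.

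Between the transgenic groups, delta arrays had lower group means than floxed arrays for the immunoproteasome genes. The change from floxed to delta was -0.28 (95% CI -0.53 to -0.03; limma adjusted p = 0.744) for Psmb9, -0.18 (95% CI -0.40 to 0.04) for Psmb8 and -0.13 (95% CI -0.29 to 0.04) for Psmb10. It was -0.20 (95% CI -0.36 to -0.04; limma adjusted p = 0.731) for Psme1 and -0.06 for Psme2. Psmb5, Psmb6 and Psmb7 had changes of -0.10, -0.05 and 0.04.

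By limma 0 of 50 members had an adjusted p under 0.05 in this comparison, beside 0.00502% of all genes, and 4 of 50 (8%) had an unadjusted p under 0.05, beside 6.42%. All 4, Psmb9, Psme1, Psma7 (-0.18) and Psmd2 (-0.18), were lower in delta arrays, where the share of all genes that were lower is 3.2%. The count was 0 without floxed 2 or without delta 1, and 2 without delta 4. Delta arrays lay below all floxed arrays for 5 of 50 genes (10%), beside 3.61% of all genes, and above them for 0, beside 3.36%. The 5 were Psmb9, Psme1, Psmd2, Psmd14 and Psmd10. Psmd2, a scaffold of the regulatory particle, had log2 levels of 10.73, 10.71 and 10.71 in floxed and 10.51, 10.63, 10.59 and 10.43 in delta arrays, while wild-type arrays ranged from 10.41 to 10.76 and overlapped both. The other Psmd2 probe set had a change of -0.07, with overlapping groups. Psmd10, a chaperone also known as gankyrin, had floxed levels of 9.31, 9.43 and 9.31 and delta levels of 9.19, 9.28, 9.29 and 9.26, so its groups were separated by little. The median change over the 50 genes was -0.05, beside 0.00451 over all genes.

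The genes that act with the proteasome were taken from lists of the same pathway. Of the 10 measured genes of MHC class I antigen processing, 0 passed the threshold by limma when floxed were set against wild-type arrays, while all 10 had changes above 0, with a median of 0.14 beside -0.02 over all genes. By limma 4 of 10 had an unadjusted p under 0.05, all higher, beside 12.8% of all genes in either direction and 6.14% higher: Tap1 and Tapbp, of the peptide loading machinery, Pdia3, a disulfide isomerase of the loading complex, and Nlrc5, the activator of MHC class I transcription. Tap1, which shares its promoter region with Psmb9, had log2 levels of 10.96, 10.82 and 10.54 in wild-type, 11.04, 11.15 and 11.13 in floxed, and 11.00, 10.90, 10.97 and 11.00 in delta arrays. Its floxed arrays lay above all wild-type and all delta arrays. The change was 0.33 (SE 0.09; limma adjusted p = 0.145), and those of Pdia3, Nlrc5, Tap2 and Tapbp were 0.31, 0.20, 0.19 and 0.14. In delta arrays the median of this list was 0.06, and Tap1 and Nlrc5 had changes of 0.19 and 0.20.

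Of 17 measured interferon gamma response genes 0 passed the threshold by limma, and 6 had an unadjusted p under 0.05, all higher in floxed arrays, beside 0.552% and 12.8% of all genes and 6.14% of them higher. The median over the list was 0.17. The transcription factor genes Irf1 and Irf8 had changes of 0.35 (limma adjusted p = 0.121) and 0.32 (limma adjusted p = 0.0684). Irf8 passed the threshold with array medians centred (0.0486) and with a trended robust prior (0.0387), but not in the other settings. Over all alternative settings its limma adjusted p ran from 0.0387 to 0.722. The largest values, 1.33 for Gbp5 and 1.18 for Gbp7, both interferon-induced GTPase genes, rested on wild-type 3, where they lay at 6.01 and 6.90 against 8.07 and 8.38 or more in the other wild-type arrays. Without wild-type 3 they were 0.56 and 0.56. The type I interferon list ran the other way, with 0 of 18 past the threshold by limma, 10 lower and 2 higher at an unadjusted p under 0.05, beside 6.63% of all genes lower and 6.14% higher, and a median of -0.31. Rsad2 (1.34; limma adjusted p = 0.150) and Rtp4 (-0.66) had the largest values there. Rsad2 passed the threshold with only these groups in the fit (0.0119), with the replicate block (0.0347) and without delta 4 (0.034), but not in the other settings. Over all alternative settings its limma adjusted p ran from 0.0119 to 0.361. In delta arrays the list medians were 0.09 for interferon gamma and -0.34 for type I interferon.

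Psma7 and Psmd14 were at 0.24 and 0.21 among the core subunits, whose median was 0.02. The other genes bound to the proteasome or needed for its assembly also had a median change close to 0. Over 20 of them the median change in floxed arrays was 0.01 and 0 passed the threshold by limma, beside 0.552% of all genes. By limma 1 of 20 had an unadjusted p under 0.05, beside 12.8% of all genes and 6.63% of them lower. That gene was Akirin2, which carries proteasomes into the nucleus, at -0.18 (limma adjusted p = 0.296), with log2 levels of 10.30, 10.26 and 10.35 in wild-type and 10.08, 10.08 and 10.22 in floxed arrays. All its floxed arrays lay below the wild-type arrays. This held for 3 of the 20 genes, beside 9.13% of all genes, and the reverse for 1, beside 7.6%. Pomp, the maturation protein of the core particle, was at 0.17 with overlapping groups. In delta arrays the median of these genes was -0.01. Of the ubiquitin precursor and activating enzyme genes, Uba6 was the one measured, with a change of 0.07.

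**Figure D5:**
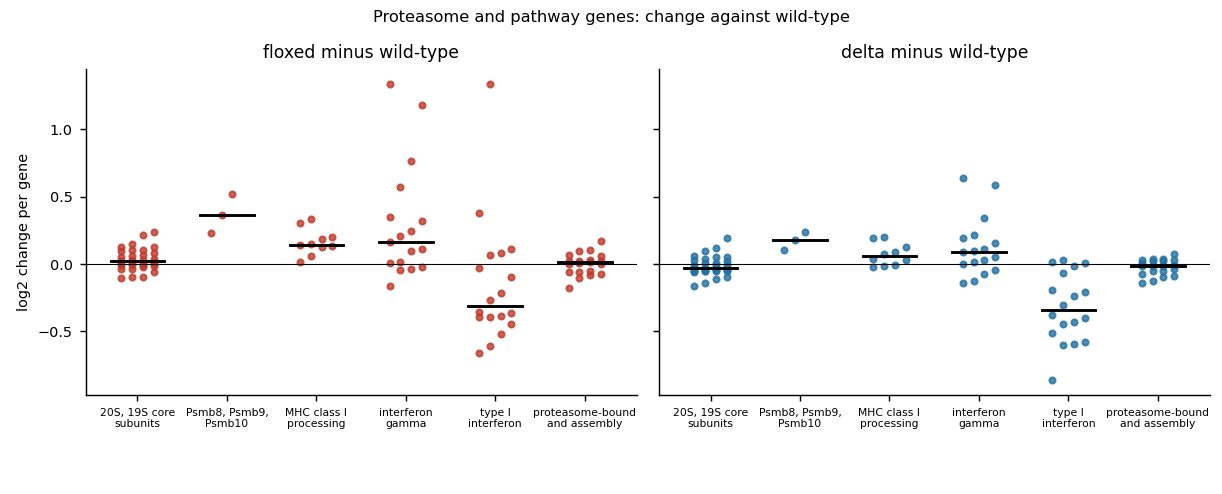
Log2 change against wild-type (vertical axis) of each gene in floxed arrays (left) and delta arrays (right), for the 32 core subunits, the 3 catalytic immunoproteasome genes, and the lists of MHC class I processing, interferon gamma response, type I interferon response, and other proteasome-bound and assembly genes. Each point is 1 gene, and the line is the median of the list. Core subunits have medians of 0.02 and -0.03, and the 3 catalytic immunoproteasome genes medians of 0.36 and 0.18.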

How the data were processed

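RNA of splenic B220+CD22+ B cells was measured on 10 arrays (3 wild-type, 3 floxed, 4 delta). The deposited values are RMA intensities on a linear scale, made by RMA per the submitters' processing notes; its software, version and genome build were not given in the sources used here. Log2 of each value was taken. Of 34760 probe sets 21640 had exactly 1 symbol in the platform annotation, 1321 had several and 11799 none. Where a gene had more than 1 of these (954 genes), the probe set of highest mean was kept, leaving 19937 genes.

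Groups were compared with limma 3.58.1 in R 4.3.3 (lmFit with a mean per group over all 10 arrays, eBayes), with two-sided p-values adjusted by Benjamini-Hochberg over all 19937 genes and called under 0.05. The number of arrays limits the precision. Groups did not overlap when every array of one lay beyond every array of the other.

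The members, gene lists and rules were chosen with earlier results of these data known. The rule named the catalytic genes other than Psmb11, the activator genes, the 2 largest changes per role, up to 3 members per direction whose groups did not overlap, and the 2 largest changes per pathway list. Not every gene that it named is given above. Psma2, Psma8, Psmb11, Psmc3, Psmd10, Tapbp, Tap2, Nlrc5, Irf1 and Irf8 lie outside it and were named after their values were seen. So were Psmd6 in floxed against wild-type arrays and Psmd14 in delta against floxed arrays. Replicate numbers are shared between groups, but the deviations of same-numbered arrays correlated at only -0.0828 to 0.121, so they were not treated as pairs.

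Alternatives were quantile normalization again, median centring, a filter on dim genes, every probe set, a trended robust prior, only the groups compared, a replicate block, sex pattern as a covariate, and each array left out. Counts at an unadjusted p, and the pathway genes, were recomputed under the same settings after seeing the data. Promoter windows, gene order and start sites came from RefSeq tables of GRCm38.p6.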

Additional observations from a re-analysis of the deposited data

Results flagged for a closer look

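In the 4 delta arrays, 48 items were examined for a single array far from the rest. They were named members, pathway genes and differences between partner genes within an array. The measure was the gap to the nearest array as a share of the whole range. By this ratio 4 of the 48, all of them named members, lay past Dixon's 95% critical value for 4 samples. Chance gives about 1 in 20. The ratio was 0.942 for Psmc6, where delta 2 lay at 9.34 and the others at 9.39. It was 0.892 for Psmc3ip, where delta 1 lay at 6.91 and the others at 7.11 to 7.13, and 0.865 for Psmc1, where delta 1 lay at 9.22 and the others at 9.41 to 9.44. It was 0.863 for Psma3, where delta 2 lay at 10.63 and the others at 10.83 to 10.86. The groups of 3 arrays were not examined in this way.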

How the results depend on the processing

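In none of the 18 alternative settings did a proteasome gene pass the threshold in any of the 3 comparisons by limma, so the count of 0 held in all of them. Of 1188 recomputed changes of 31 named members, 1171 moved by less than the spread between arrays. The other 17 moved by more, and all 17 came from 1 setting, that with sex pattern as a covariate. They included the changes of Psmb8, Psmb10, Psma7 and Psme1 in floxed against wild-type arrays. Signs changed for 49, all of members whose change was at most 0.0743 in size. The count over all genes moved more. In floxed against wild-type arrays it was 110, and 193 with only those groups in the fit, 188 with the replicate block, 2 with sex pattern as a covariate, and 18 to 240 with 1 array left out. In delta against wild-type arrays it was 15, and 0 with every probe set kept and with only those groups, 9 with a trended robust prior, 6 with the replicate block, 3 with sex pattern, and 0 to 23 with 1 array left out. In delta against floxed arrays it was 1, and 3 with a trended robust prior, 2 with only those groups, 2 with the replicate block, and 1 to 10 with 1 array left out. The members at an unadjusted p under 0.05 numbered 3 to 9, 0 to 4 and 0 to 4 in these 3 comparisons with 1 array left out. In delta against wild-type they numbered 2 with a trended robust prior, 0 with the replicate block and 2 with sex pattern, and in delta against floxed 1 with the replicate block. With sex pattern as a covariate the median change of the members in floxed against wild-type arrays was 0.0867, that of Psmb8, Psmb9 and Psmb10 was 0.56, and that of these 3 genes in delta against floxed arrays was -0.31. The cause of these shifts was not tested. Over the arrays left out, the change of Psmb9 in floxed against wild-type arrays lay between 0.42 and 0.64, that of Psmb8 between 0.31 and 0.46, that of Psmb10 between 0.19 and 0.27 and that of Psme1 between 0.16 and 0.27. With 3 or 4 arrays a group, the median 95% CI of a member reached 0.17 log2 units to either side in floxed against wild-type arrays, so changes smaller than this could not be told from 0.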
